A study of Mus musculus with 8 samples.

Results

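CD8α+ and CD8α- dendritic cells differ in many transcripts, and the comparison described here asks for which genes the size of that difference was not the same in mice with and without lymphocytes. For each gene, the subset gap is the mean log2 level of the CD8α+ group minus the mean of the CD8α- group, and the interaction is the gap in RAG2-/- mice less the gap in wild type mice. All 8 arrays of the series entered it, and 14603 of 45101 probe sets, standing for 8763 of the 18193 genes named on the array, had 1 gene name and a log2 level of 5 or more on at least 2 arrays. Values below 5, close to background, were set to 5, so a gap against such a group is a bound, and a gap between 2 such groups is not measured.

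The groups were untreated female C57BL/6 mice aged 10 weeks per the sample labels, either wild type or RAG2-/-, with splenic dendritic cells sorted by CD8α, in 4 groups of 2 arrays. RAG2 is a part of the enzyme that cuts antigen receptor genes for rearrangement, and without it mature T and B lymphocytes are not formed while natural killer and myeloid cells are. Total RNA of each sorted population was read on Affymetrix mouse arrays, and the study's design text states only that each population was done in duplicate. Whether the duplicates were separate mice is not given in the sources used here, so p-values measure the spread between these samples, which may be technical. In a sorted bulk population, a higher share of cells carrying a transcript and more transcript per cell cannot be told apart.

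The conventional dendritic cells of the spleen are of a CD8α+ and a CD8α- kind. The CD8α+ kind depends on the transcription factors IRF8 and BATF3, takes up dead cells and presents their antigens to CD8 T cells. The CD8α- kind depends largely on IRF4, and on Notch2 and lymphotoxin signals in the marginal zone and bridging channels, and presents mainly to CD4 T cells. Fc receptors, which bind the constant part of IgG, and C-type lectins, which bind sugars, let dendritic cells take up coated or glycosylated particles.

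The low-affinity IgG receptor genes Fcgr2b, Fcgr3 and Fcgr4 lie side by side on mouse chromosome 1, and their interactions were of like size and sign, described further on. The 250 bases before each gene's start are shown for these neighbours, from RefSeq (GRCm38.p6), written 5′ to 3′ in the direction of the gene. They lie at chr1:170976072-170976321 (minus strand) for Fcgr2b, chr1:171059404-171059653 (minus strand, the first of 2 starts listed) for Fcgr3 and chr1:171018676-171018925 (plus strand) for Fcgr4. Capitals mark the only match, on either strand, to GAGGAAGT, a core letter pattern of the kind bound by the myeloid factor PU.1.
Fcgr2b: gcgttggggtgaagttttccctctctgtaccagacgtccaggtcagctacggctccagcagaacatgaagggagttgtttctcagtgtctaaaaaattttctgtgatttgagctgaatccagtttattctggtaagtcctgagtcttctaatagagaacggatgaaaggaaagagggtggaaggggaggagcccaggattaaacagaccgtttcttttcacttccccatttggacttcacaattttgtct
Fcgr3: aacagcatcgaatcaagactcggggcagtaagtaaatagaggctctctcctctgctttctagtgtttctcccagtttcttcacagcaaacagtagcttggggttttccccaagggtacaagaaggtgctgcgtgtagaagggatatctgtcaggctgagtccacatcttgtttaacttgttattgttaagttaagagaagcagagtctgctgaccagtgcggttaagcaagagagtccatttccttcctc
Fcgr4: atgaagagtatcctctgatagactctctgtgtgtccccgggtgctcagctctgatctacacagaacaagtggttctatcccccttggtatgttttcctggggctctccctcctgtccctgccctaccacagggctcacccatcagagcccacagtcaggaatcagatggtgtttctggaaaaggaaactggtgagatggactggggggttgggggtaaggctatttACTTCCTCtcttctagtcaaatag
The pattern stood in the Fcgr4 stretch 24 bases before the start (ACTTCCTC, the reverse strand) and in neither of the others. Among all promoters of the table, 802 of 32851 stretches of the same length (2.44%) held it.

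The sort was visible in its own marker. Cd8a, which encodes the sorting antigen, had a gap of 5.88 in wild type and 5.11 in RAG2-/- cells, an interaction of -0.77 (SE 0.40, limma, adjusted p = 0.697), and its next 3 probe sets gave 0.45, 0.71 and 1.27, so its direction was not the same across probe sets. Those 3 had CD8α- arrays below 5 in both genotypes, so their values rest on the floor, while the first was above 5 on all 8 arrays. Without RAG2-/- CD8α- replicate 2 the interaction of Cd8a was -0.37. Rag1 and Rag2 were below 5 on all 8 arrays and say nothing of the genotype. The wild type arrays lacked the lowest value, 2.23, that the RAG2-/- arrays shared at 40.4% to 41.9% of probe sets, so the genotypes were evidently processed apart. An offset common to both subsets of a genotype cancels in the interaction, and a difference in how low values were treated does not. The 3′ less 5′ signal of Actb, a measure of RNA integrity, was 1.42 to 2.14 log2 units on wild type arrays and 0.66 to 1.49 on RAG2-/- arrays. For Gapdh it was 3.436 to 5.251 on wild type arrays and 1.945 to 2.873 on RAG2-/- arrays, without overlap.

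Other cells' transcripts were not alike between arrays. Of 8 neutrophil transcripts tested, 7 stood at 5 or more on RAG2-/- CD8α+ replicate 1 and 8 on RAG2-/- CD8α- replicate 2, with a log2 summed level of 11.83 and 13.28, against 6.03 to 7.72 and at most 2 transcripts on the other 6 arrays. Splenic macrophage transcripts (13 tested) had a summed level of 12.39 to 13.09 in wild type, 13.69 and 13.99 in RAG2-/- CD8α+ cells, and 14.80 and 14.87 in RAG2-/- CD8α- cells, with 6 or 7, 11 or 12, and 13 of them at 5 or more. Among those that mark red pulp macrophages, Cd163 and Cd5l were below 5 on all 4 wild type arrays. Other members of the list were not: Vcam1 was at 10.60 to 12.36 on wild type arrays. Adgre1 was at 11.32 and 11.50 in wild type CD8α- cells, and its interaction of 1.13 lay above 0. All 13 B cell transcripts tested were at 5 or more on each wild type array and 6 or 7 on each RAG2-/- array. Their summed level overlapped between genotypes, at 14.181 to 14.625 on wild type arrays and 14.078 to 14.529 on RAG2-/- arrays. Both arrays with neutrophil transcripts and the higher macrophage transcripts of RAG2-/- CD8α- cells move with genes described below, and their part in those results was not tested.

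**Figure D1:**
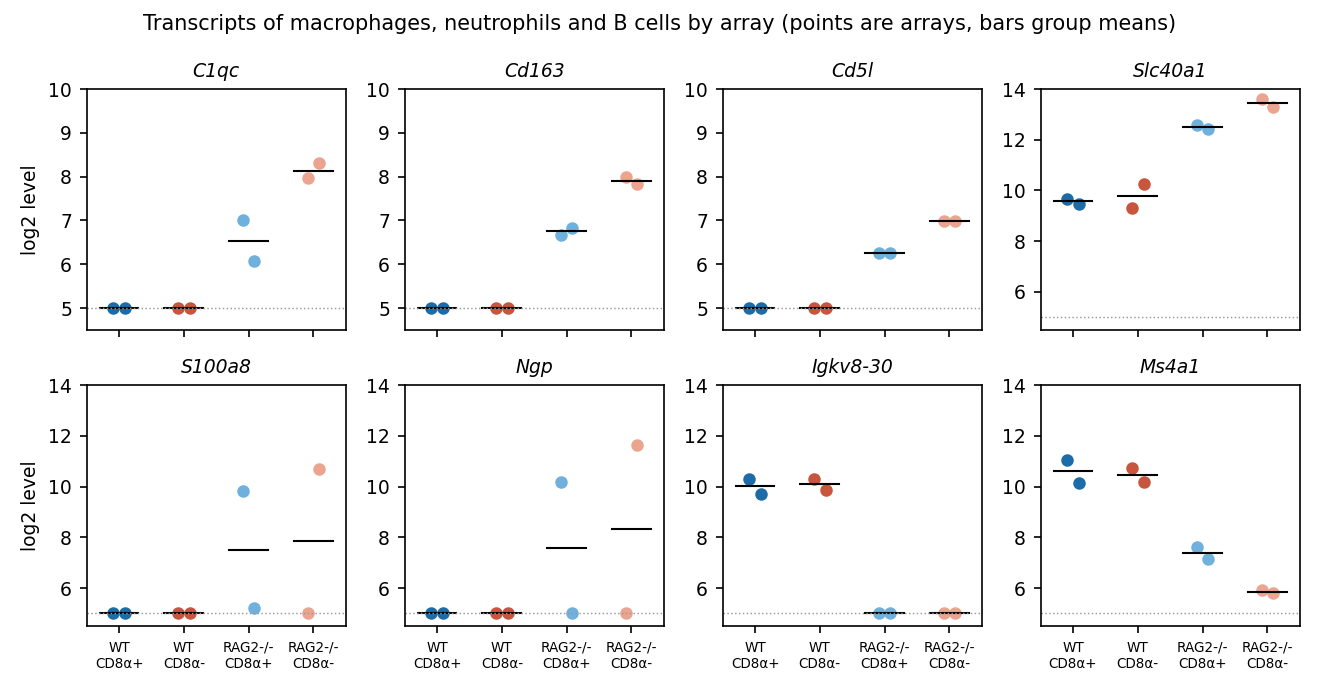
Log2 levels, with values below 5 set to 5 (dotted line), of 4 macrophage (C1qc, Cd163, Cd5l, Slc40a1), 2 neutrophil (S100a8, Ngp) and 2 B cell transcripts (Igkv8-30, Ms4a1) on the 8 arrays. Points are arrays and bars are means of 2. The macrophage transcripts shown stand highest in RAG2-/- CD8α- cells, the neutrophil transcripts on 1 array of each RAG2-/- group, and these 2 B cell transcripts in wild type.

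The subset gaps of the genotypes went together across genes, most of which (79.3%) had no gap of 1 log2 unit or more in either. Across the 8763 genes the gaps of the genotypes correlated at r = 0.856 (Spearman's rho = 0.751), a description in which genes are not independent replicates. The SD over genes was 0.923 for the wild type gap, 0.983 for the RAG2-/- gap and 0.515 for the interaction, whose median was -0.02 and whose median SE was 0.318. An interaction of at least 1 log2 unit in size was seen for 489 genes (5.58%).

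Taking a gap of 1 log2 unit or more as open, 518 genes (5.91%) had an open gap only in RAG2-/- cells and 373 (4.26%) only in wild type. The gap was open in both and larger in RAG2-/- cells for 507 genes (5.79%), and open in both and smaller there for 416 (4.75%). No gene had open gaps of opposite sign, and 6949 (79.3%) had no open gap. Of the gaps that were larger in RAG2-/- cells, 296 of 507 were of genes higher in CD8α- cells, and of those that were smaller, 267 of 416 were of genes higher in CD8α+ cells. These are classes of size alone, since few single genes passed the test.

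At an adjusted p under 0.05, 29 genes (0.331% of those tested) had an interaction, 19 above 0 (0.217%) and 10 below (0.114%). An unadjusted p under 0.05 was reached by 711 genes (8.11%), 313 above 0 (3.57%) and 398 below (4.54%). Of the 29, 15 had an open gap only in wild type, 7 only in RAG2-/- cells, 3 widened and 4 narrowed. For 25 of the 29 the genotypes differed more in CD8α- than in CD8α+ cells. That count rests largely on the floor. For most of the 29 both CD8α+ groups were set to 5, so a genotype difference there could not be seen. The share over all genes tested was not computed.

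The floor bears on nearly all of these calls. At least 1 array was below 5 for 28 of the 29 genes, and for 26 the bounds alone leave the direction of the interaction unsettled. A group with both arrays set to 5 also shows no spread. This lowers the pooled spread of such a gene, so its SE and adjusted p are understated. With values as deposited, 21 genes were called, 7 above 0 and 14 below, 12 of them among the 29. Among the 7509 genes at 5 or more on all 8 arrays, limma called 0, with 473 at an unadjusted p under 0.05. Centring each array on its median gave 7 calls above 0 and 8 below, all 15 among the 29.

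Single arrays bear on the calls too. Leaving out wild type CD8α+ replicate 2 left 0 of the 29 called, and leaving out its replicate 1 left 4. Without wild type CD8α- replicate 1 or 2, 6 and 6 stayed called, without RAG2-/- CD8α+ replicate 1 or 2, 2 and 3, and without RAG2-/- CD8α- replicate 1 or 2, 10 and 9. Without both arrays that carried neutrophil transcripts none was called, with adjusted p-values of 0.126 to 0.244 for the 29, no sign turned, and 1185 genes at an unadjusted p under 0.05.

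**Figure D2:**
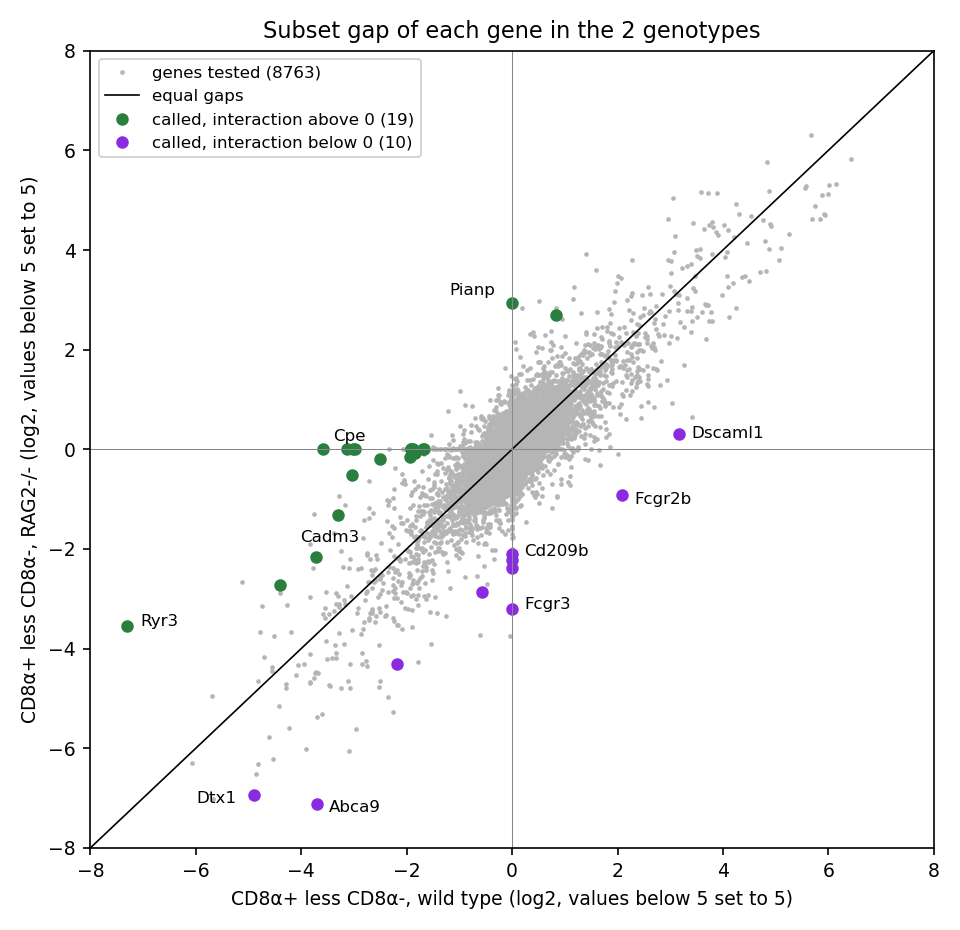
Each point is a gene, with its subset gap (CD8α+ less CD8α-, log2, values below 5 set to 5) in wild type on the horizontal axis and in RAG2-/- cells on the vertical axis, and the line marks equal gaps. Of the 29 called genes, the 19 above the line are green and the 10 below it purple; called genes with 1 gap at exactly 0 have a genotype in which both subsets were at the floor.

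The 4 CD8α+ less CD8α- differences between single arrays of RAG2-/- mice lay all above the 4 of wild type for 898 genes (10.2%) and all below for 1066 (12.2%). By the naming rule, which asks for such a separation and that the bounds settle the direction, 3 of the called genes qualified: Fcgr2b, Dtx1 and Cadm3. The other 26 are named because the list is short, after their values were seen.

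Fcgr2b, the inhibitory IgG receptor, was the only called gene measured above 5 on every array. Its level was 10.69 and 10.97 in the CD8α+ and 8.62 and 8.89 in the CD8α- cells of wild type mice, against 10.96 and 11.18 in RAG2-/- CD8α+ cells and 12.30 and 11.70 in RAG2-/- CD8α- cells. Wild type CD8α- cells were the low group, and the subset order was turned in RAG2-/- mice. The gap was 2.08 in wild type and -0.93 in RAG2-/- cells, an interaction of -3.00 (SE 0.34, adjusted p = 0.0310), which is 8.01-fold. Its 3 other probe sets above background gave -2.11, -2.57 and -2.85. No array could be left out without losing the call (adjusted p up to 0.205), while the value stayed between -3.30 and -2.70, and without both arrays carrying neutrophil transcripts it was -3.19.

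Fcgr3, an activating IgG receptor, was below 5 on all wild type arrays and stood at 5.56 and 5.79 in RAG2-/- CD8α+ cells and 8.65 and 9.10 in RAG2-/- CD8α- cells. The RAG2-/- gap was -3.20, and the interaction of -3.20 (SE 0.27, adjusted p = 0.0136) became -2.79 (0.0359) with values as deposited. Fcgr4, another activating receptor, showed the same order with 1 uneven group: it was below 5 on 3 wild type arrays and at 6.23 on the other (CD8α- replicate 2), at 5.32 and 5.43 in RAG2-/- CD8α+ cells and at 9.22 and 8.97 in RAG2-/- CD8α- cells. Its interaction of -3.10 (SE 0.52) did not pass the test (adjusted p = 0.113) and was -1.30 as deposited. The receptors encoded by Fcgr2b and Fcgr3 are closely alike outside the cell, and how far their probes tell them apart was not tested. Both genes and Fcgr4 are also expressed by macrophages and neutrophils, whose transcripts are given above.

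Cd209b, a lectin known from marginal zone macrophages, was above 5 only in RAG2-/- CD8α- cells, at 7.31 and 7.12. The interaction was -2.22 (SE 0.20, adjusted p = 0.0165), and -4.97 with values as deposited (0.000786). In the other groups the deposited values were 2.23 to 2.33, so the size of the as-deposited value rests on signal near background. A second Cd209b probe set was below 5 on every array. Cd300ld and Cd300lb, activating receptors of myeloid cells, were below 5 in CD8α+ cells of both genotypes. Cd300ld stood at 5.58 and 5.56 in the CD8α- cells of wild type mice and at 8.06 and 7.68 in RAG2-/- CD8α- cells (interaction -2.30, SE 0.24, adjusted p = 0.0263), and Cd300lb at 7.04 and 7.32 against 9.22 and 9.38 (-2.12, SE 0.22, adjusted p = 0.0270). So both were higher in the CD8α- cells of RAG2-/- mice on each array, and the CD8α+ side of both gaps is a bound. As deposited, Cd300ld gave -2.16 (adjusted p = 0.0419) and Cd300lb -1.80 (0.631).

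Abca9, an ABC family lipid transporter, had the lowest called interaction. It was below 5 in CD8α+ cells of both genotypes, at 8.26 and 9.15 in the CD8α- cells of wild type mice, and at 12.17 and 12.06 in RAG2-/- CD8α- cells. The gap went from -3.70 to -7.11 (interaction -3.41, SE 0.39, adjusted p = 0.0310; -3.08 and 0.101 as deposited). Hacd4, an enzyme of very long chain fatty acid elongation, and Xdh, the last enzyme of purine breakdown to urate, had open gaps only in RAG2-/- cells. Hacd4 was above 5 only in RAG2-/- CD8α- cells, at 7.31 and 6.90 (interaction -2.10, adjusted p = 0.0310), and Xdh at 7.36 and 7.82 there, with 5.40 on 1 RAG2-/- CD8α+ array, replicate 1 (-2.39, adjusted p = 0.0398). As deposited, Hacd4 gave -3.84 (adjusted p = 0.0419) and Xdh -2.58 (0.0583).

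Dtx1, a regulator and target of Notch signalling, widened from the CD8α+ side. It stood at 12.36 and 12.14 in the CD8α- cells of wild type mice and at 11.74 and 12.13 in RAG2-/- CD8α- cells, a difference of -0.31 (SE 0.18). In CD8α+ cells it was at 7.41 and 7.31 in wild type and below 5 on both RAG2-/- arrays. The gap went from -4.89 to -6.93 or lower, an interaction of at most -2.05 (SE 0.26, adjusted p = 0.0398), and of -3.14 with values as deposited (0.0258). The call was lost without any 1 array (adjusted p up to 0.210) and with quantile normalization (-1.80, 0.0738).

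Ryr3, a ryanodine receptor that releases calcium from the endoplasmic reticulum, had the highest interaction and the largest wild type gap of the called genes. Its level was 5.40 and 5.41 in the CD8α+ and 12.60 and 12.81 in the CD8α- cells of wild type mice, below 5 in RAG2-/- CD8α+ cells, and 8.45 and 8.63 in RAG2-/- CD8α- cells. The CD8α- level was thus 4.16 (SE 0.15) lower in RAG2-/- mice. The gap narrowed from -7.30 to -3.54 with the floor (interaction 3.76, SE 0.21, adjusted p = 0.00377), and because the floor hides how low RAG2-/- CD8α+ cells were, the interaction is at most that large: as deposited it was 1.98 (SE 0.24, adjusted p = 0.0419). Ryr3 kept its call without any 1 array other than wild type CD8α+ replicate 2 (3.65 to 3.86, adjusted p up to 0.0523).

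Cadm3, a cell adhesion molecule of the nectin-like family, narrowed from both sides. It was below 5 in the CD8α+ and at 8.80 and 8.63 in the CD8α- cells of wild type mice, against 5.73 on both RAG2-/- CD8α+ arrays and 7.89 on both RAG2-/- CD8α- arrays. The gap of -3.71 or lower became -2.16, an interaction of at least 1.55 (SE 0.20, adjusted p = 0.0398). The deposited value was the same on both arrays of each RAG2-/- group. That held for 216 genes above 5 in RAG2-/- CD8α+ cells and 237 in RAG2-/- CD8α- cells, against 62 and 58 in wild type. As for genes with groups at the floor, the spread behind the test is understated for Cadm3. It was called as deposited (1.82, adjusted p = 0.0419), with quantile normalization (1.82, 0.0265) and with the floor at 6 (0.82, 0.0438). It was not called with median centring (1.23, 0.117), limma-trend (1.55, 0.106) or the mean of its probe sets (1.32, SE 0.55, 0.561). Its other probe sets above background gave 1.04 and 1.13. Without any 1 array it lost the call, with values of 1.471 to 1.635.

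Scn3a, a voltage-gated sodium channel subunit, and Lysmd2 narrowed as well, with both CD8α+ groups below 5. Scn3a fell from 8.25 and 8.37 in wild type CD8α- cells to 6.15 and 6.49 in RAG2-/- CD8α- cells (interaction 1.99, SE 0.23, adjusted p = 0.0329), and Lysmd2 from 9.39 and 9.40 to 7.61 and 7.85 (1.67, SE 0.21, adjusted p = 0.0398). Neither was called as deposited, where the interactions were 1.05 (adjusted p = 0.773) and 0.41 (0.855).

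Cpe, carboxypeptidase E, which trims peptide hormone precursors, led the genes with an open gap only in wild type. It was at 8.75 and 8.53 in wild type CD8α- cells, at 5.09 on wild type CD8α+ replicate 1 and below 5 on the other 5 arrays. Its interaction was 3.59 (SE 0.21, adjusted p = 0.00377), and 3.43 (0.0412) as deposited. Like Ryr3 it kept its call without any 1 array other than wild type CD8α+ replicate 2 (0.0523).

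Another 9 called genes were also clear of the floor in wild type CD8α- cells alone, with no array of another group higher than 5.30. They included the uncharacterised 2610528A11Rik, at 7.88 and 8.16 there (interaction 3.02, adjusted p = 0.00699), the Wnt inhibitor Dkk2, at 7.83 and 8.13 (2.98, 0.00699), and Col17a1, a collagen of epithelial anchoring junctions, at 6.96 and 6.87 (1.91, 0.0220). Nid1, a basement membrane linker, gave 1.87 (0.0310), the endocytic adaptor Ston2 1.77 (0.0295), and the zinc finger gene Zfp521 1.70 (0.0310). Tmod2, which caps actin filaments, gave 1.66 (0.0340), Eid2 1.93 (0.0340) and Mical3, an actin-oxidising enzyme, 1.79 (0.0468), the last within the threshold. The subset gap of these genes in RAG2-/- cells is not measured, since both subsets were near or below 5 there. Of these 9, 2610528A11Rik (3.72, adjusted p = 0.00970) and Col17a1 (3.75, 0.0258) were also called as deposited, while Nid1 gave 3.28 (0.0646), Zfp521 0.92 (0.501) and Mical3 0.69 (0.719).

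Tmem158, the cochaperone gene Dnajc22 and the cadherin gene Cdh17 had the same order of groups with weak signal in 1 more group. Tmem158 was at 8.50 and 8.49 in the CD8α- and 5.47 and 5.24 in the CD8α+ cells of wild type mice, and below 5 in RAG2-/- cells (interaction 3.14, adjusted p = 0.00575). Dnajc22 fell from 7.43 and 7.60 in wild type CD8α- cells to 5.30 and 5.09 in RAG2-/- CD8α- cells (2.31, 0.0165), and Cdh17 from 8.21 and 7.88 to 5.72 and 5.31 (2.53, 0.0295). As deposited these 3 gave 1.90, 0.91 and 1.09, and none was called (adjusted p of 0.245, 0.824 and 0.395).

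Changes led by CD8α+ cells were few among the called genes, most of which had both CD8α+ groups at the floor. Pianp, which encodes a ligand of the inhibitory receptor PILRα, was above 5 only in RAG2-/- CD8α+ cells, at 8.18 and 7.67 (interaction 2.93, SE 0.27, adjusted p = 0.0165; 3.37 and 0.0258 as deposited). Myo9a, an unconventional myosin, was at 5.99 and 5.67 in wild type CD8α+ cells and 8.44 and 8.49 in RAG2-/- CD8α+ cells, with CD8α- cells below 5 in wild type and at 5.83 and 5.70 in RAG2-/- mice (1.87, SE 0.23, adjusted p = 0.0390). Dscaml1, an adhesion protein of the immunoglobulin superfamily, went the other way: it was at 7.92 and 8.41 in wild type CD8α+ cells, 5.35 and 5.27 in RAG2-/- CD8α+ cells, and below 5 in both CD8α- groups (-2.86, SE 0.27, adjusted p = 0.0165). Myo9a gave 0.48 with quantile normalization (adjusted p = 0.811), where the probe set of each gene was chosen anew, and 1.18 as deposited (0.365). Its second probe set, at 5 or more on all 8 arrays, gave 0.53, so the size for Myo9a depended on the probe set. Dscaml1 gave -2.23 (0.115) as deposited.

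**Figure D3:**
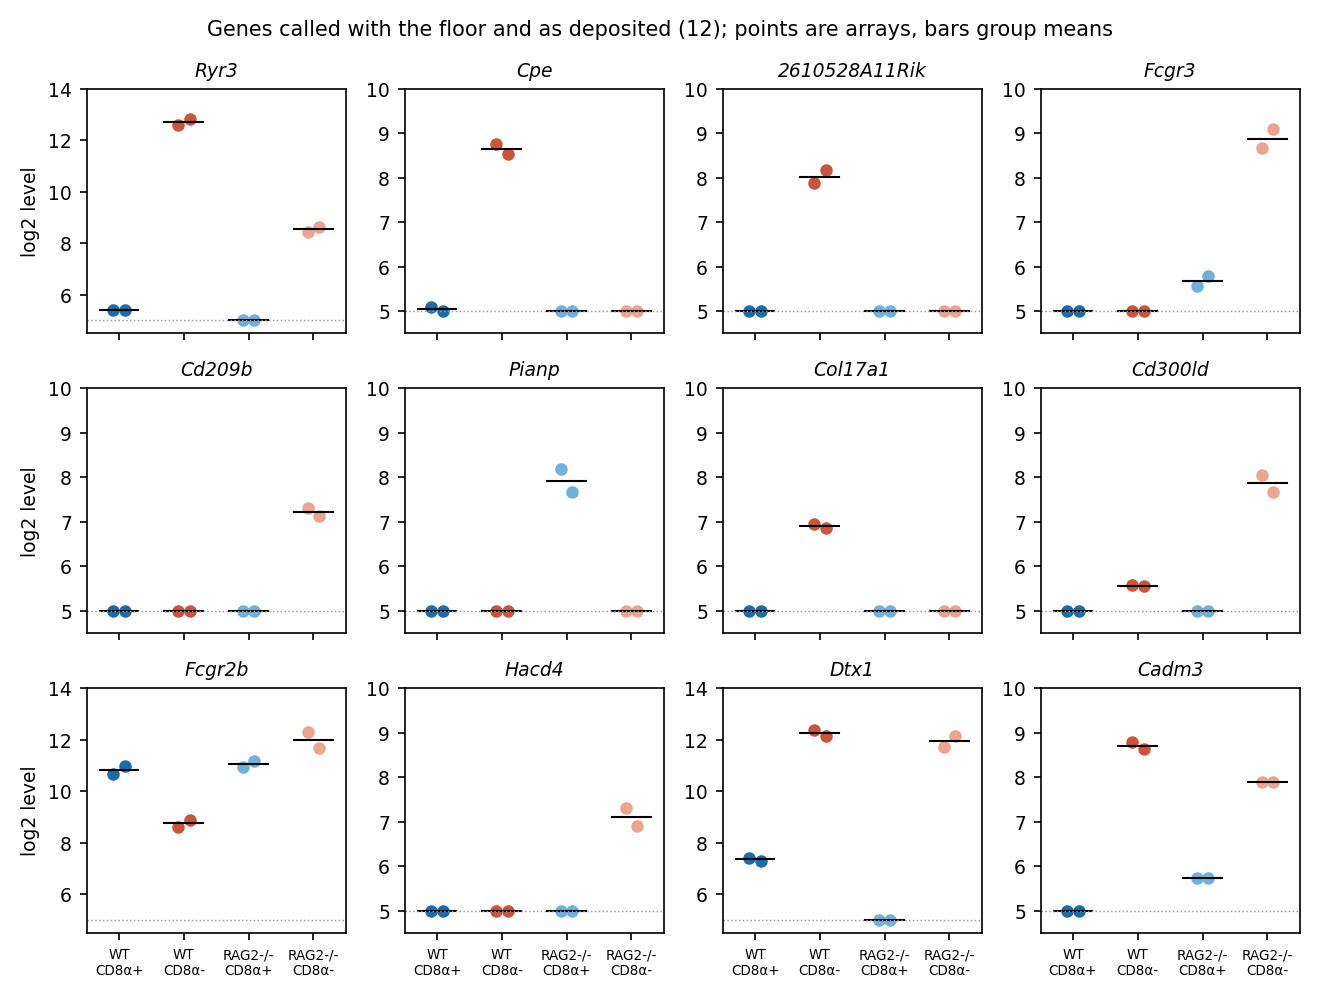
Log2 levels on the 8 arrays (values below 5 set to 5, dotted line) of the 12 genes called both with the floor and with values as deposited; points are arrays and bars means of 2. Cpe, 2610528A11Rik and Col17a1 stand well above the floor only in wild type CD8α- cells, Cd209b and Hacd4 only in RAG2-/- CD8α- cells and Pianp only in RAG2-/- CD8α+ cells, while Fcgr2b is above the floor on every array.

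The lists of pathway and marker genes were read for where the remaining members lie. For a list, the count of members at an unadjusted p under 0.05 is set beside the 3.57% above 0 and 4.54% below 0 found over all genes, and no test of the list was made. Some genes stand in several lists, so the counts of different lists are not independent.

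Among C-type lectins and phagocytic receptors, 18 of 31 listed genes were tested, 3 were called (Fcgr2b, Fcgr3, Cd209b), 8 in all lay below 0 and 2 above at an unadjusted p under 0.05, and the median interaction was -0.81 (-1.27 as deposited). Clec7a, the β-glucan receptor Dectin-1, had levels of 8.53 and 8.73 in the CD8α+ and 10.29 and 10.06 in the CD8α- cells of wild type mice, 9.44 and 8.32 in RAG2-/- CD8α+ cells and 13.06 and 12.53 in RAG2-/- CD8α- cells. Its gap was -1.55 and then -3.91 (interaction -2.37, SE 0.53, adjusted p = 0.241). Cd209a, the mouse lectin closest in name to human DC-SIGN, had gaps of -2.53 and -4.78 (-2.25, SE 0.62, adjusted p = 0.367). Clec10a, a galactose-type lectin, had -0.05 and -3.75 (-3.70, SE 0.99, 0.352), with RAG2-/- CD8α+ arrays at 7.40 on one and below 5 on the other, and -2.46 without both arrays that carried neutrophil transcripts. All 3 were higher on both RAG2-/- CD8α- arrays than on any other. The members above 0 were Ly75, the endocytic receptor DEC-205 of CD8α+ cells (1.01, SE 0.39, adjusted p = 0.569, and 0.57 without RAG2-/- CD8α- replicate 2), and Clec4a2, an inhibitory lectin of CD8α- cells (0.74, SE 0.25, 0.487), whose sign turned with the floor at 6 (-0.26). Without both arrays that carried neutrophil transcripts, the list's median was -0.67, with 7 members below 0 and 3 above at that p.

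The markers of CD8α- dendritic cells had a median interaction of -0.65 over 19 tested (-0.32 as deposited), with 8 below 0 and 3 above at an unadjusted p under 0.05. These counts overlap with other lists: Clec10a, Cd209a and Clec4a2 are also counted among the lectins. Dtx1, Ltb and Notch2 also belong to the Notch and lymphotoxin list below. Irf4, the lineage's transcription factor, lay just outside the threshold (-2.15, SE 0.29, adjusted p = 0.0509). It was at 10.13 and 9.90 in wild type and 9.78 and 9.68 in RAG2-/- CD8α- cells, and at 7.75 and 7.26 in wild type against 5.14 on 1 array and below 5 on the other in RAG2-/- CD8α+ cells, so that, as for Dtx1, the groups stood apart on the CD8α+ side (-1.22 with the floor at 6). Cd4, carried by most of these cells, was below 5 in CD8α+ cells and at 8.08 and 7.83 in wild type against 10.00 and 11.23 in RAG2-/- CD8α- cells (-2.66, SE 0.52, adjusted p = 0.174). Both CD8α+ sides of that gap are bounds, and as deposited the interaction of Cd4 was -1.32. S100a4 gave -1.26 (0.348) and Cx3cr1, the fractalkine receptor, -1.43 (0.569), or -0.93 without both arrays that carried neutrophil transcripts.

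The other 3 members at that p lay above 0. Ccr6, a receptor for the chemokine CCL20, was at 9.73 and 9.85 in wild type and 8.39 and 8.96 in RAG2-/- CD8α- cells (1.11, SE 0.29, adjusted p = 0.352), with CD8α+ cells below 5. That value rests on the floor: it was 0.35 as deposited and 0.46 with median centring. Tbx21, which encodes T-bet, had gaps of -3.83 and -1.91 (1.92, SE 0.75, 0.569), and an interaction of 0.98 without RAG2-/- CD8α- replicate 1. The third was Clec4a2. Sirpa, a sorting marker of the lineage in many studies, had gaps of -4.56 and -4.44 (0.12, SE 0.47, adjusted p = 0.968), and Esam gaps of -2.50 and -2.61, and the sign of both small interactions turned with single arrays left out.

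The markers of CD8α+ dendritic cells had a median of -0.62 over 20 tested, with 3 above 0, 1 below and none called. That median rested on both arrays with neutrophil transcripts: without them it was 0.04. Ppt1, a lysosomal thioesterase, was the member below 0 (-1.42, SE 0.37, adjusted p = 0.348, or -0.89 without both of those arrays). Of its 4 other probe sets above background, 2 gave -1.17 and -1.04 and 2 gave 0.62 and 0.29. Irf8 had levels of 10.80 and 11.75 in wild type CD8α- cells and 11.50 and 13.25 in RAG2-/- CD8α- cells, the last on the array with the most neutrophil transcript (-1.22, SE 0.80, adjusted p = 0.769). Without that array, RAG2-/- CD8α- replicate 2, the interaction of Irf8 was -0.34. Itm2a gave 1.59 (0.416; 2.56 with the mean of its probe sets), Snx22 1.43 (0.569; 0.80 without wild type CD8α+ replicate 1), and Xcr1, the chemokine receptor that marks the lineage, had gaps of at least 3.05 and 5.04 (SE of the interaction 0.96, adjusted p = 0.678). For Xcr1 the interaction ranged from 0.88 without wild type CD8α+ replicate 1 to 3.11 without replicate 2, and was 1.18 as deposited.

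**Figure D4:**
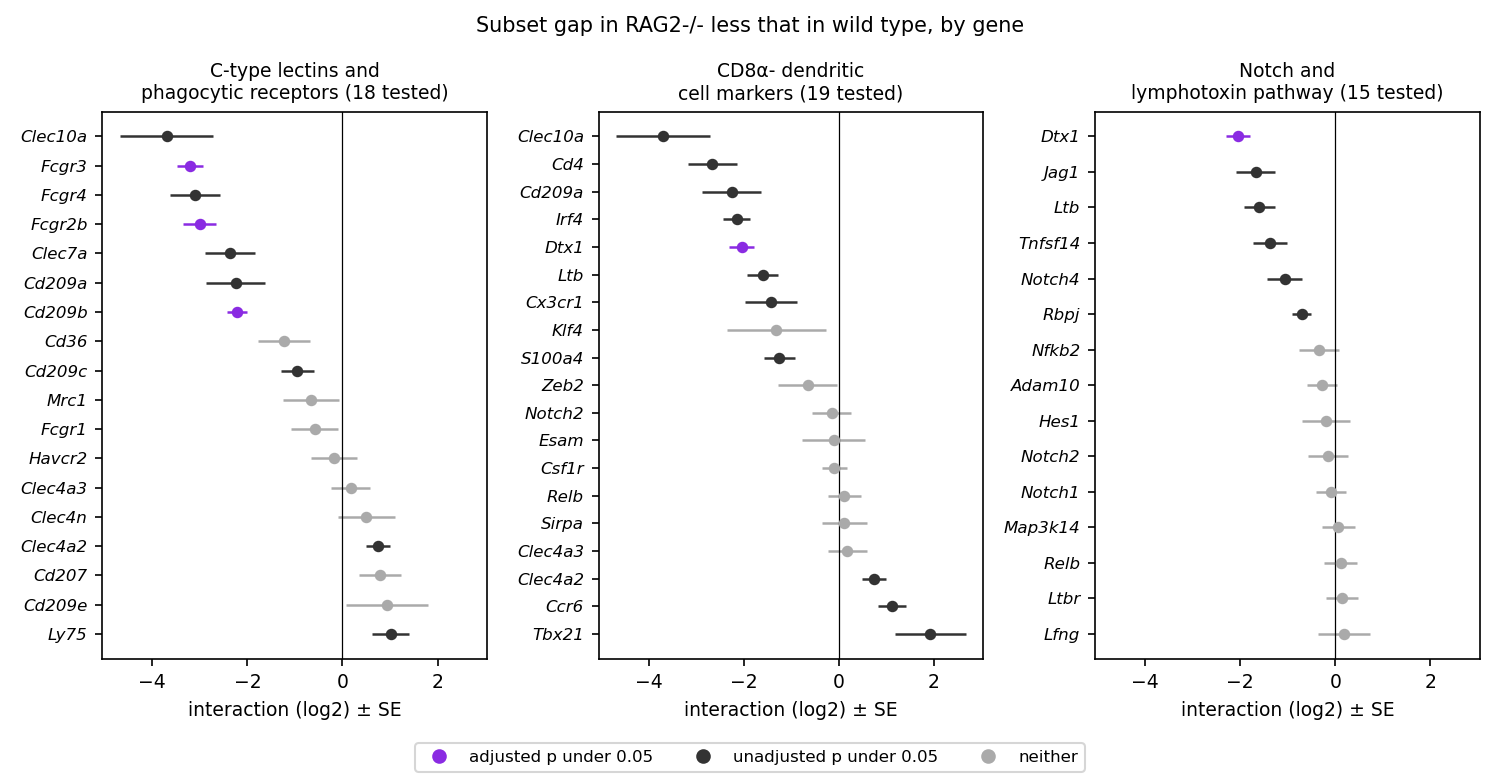
Interaction (subset gap in RAG2-/- less that in wild type, log2) ± SE for each tested gene of 3 lists, sorted, with 2 arrays a group; purple marks an adjusted p under 0.05, dark grey an unadjusted p under 0.05 and light grey neither. Below 0 are Fcgr2b, Fcgr3, Cd209b and Dtx1 among the called genes, and above 0 the farthest member is Tbx21 at 1.92. Some genes, such as Dtx1 and Clec10a, appear in more than a single panel.

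In the Notch and lymphotoxin pathway, 15 of 21 listed genes were tested, 6 lay below 0 and none above at an unadjusted p under 0.05, and the median was -0.28. Of the ligands, Ltb (lymphotoxin β) was at 8.79 and 8.72 in the CD8α+ and 11.41 and 11.62 in the CD8α- cells of wild type mice, 7.96 and 8.27 in RAG2-/- CD8α+ cells and 12.76 and 12.18 in RAG2-/- CD8α- cells. In RAG2-/- cells it stood lower in the CD8α+ and higher in the CD8α- subset (-1.60, SE 0.33, adjusted p = 0.193). Jag1, a Notch ligand, gave -1.67 (0.292) and Tnfsf14, the ligand LIGHT, -1.37 (0.352), or -3.95 and -2.88 as deposited and -0.67 and -0.38 with the floor at 6. Among receptors, Notch4, higher in CD8α+ cells, had gaps of 5.11 and 4.04 (-1.06, 0.489; -0.65 with the floor at 6), and Notch2 had gaps of -0.12 and -0.28 (-0.15, SE 0.42, 0.954; between -0.52 and 0.21 with single arrays left out). Rbpj, the factor through which Notch acts on DNA, had gaps of 0.91 and 0.21 (-0.70, SE 0.20, 0.390). The called gene of the list was Dtx1.

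Among chemokines and their receptors, 6 of 18 tested lay below 0 and 1 above at an unadjusted p under 0.05 (median -0.55), and none was called. Ccl9 was at 8.77 and 9.21 in wild type and 11.37 and 10.79 in RAG2-/- CD8α- cells, with gaps of -2.25 and -5.26 (-3.01, SE 0.67, adjusted p = 0.236). Ccr2, which draws monocytes and dendritic cell precursors to CCL2, was at 9.14 and 8.48 in CD8α+ and 7.77 and 8.32 in CD8α- cells of wild type, and at 9.58 and 9.43 and at 10.27 and 11.09 in those of RAG2-/- mice. The gap was thus 0.76 in wild type and -1.17 in RAG2-/- cells (-1.94, SE 0.50, 0.348), while a further probe set gave 0.01 and the mean of its probe sets -0.97. Cxcl9, induced by interferon-γ and higher in CD8α+ cells, had gaps of 4.81 and 3.58 (-1.23, 0.580; -0.67 without wild type CD8α- replicate 1). Without both arrays that carried neutrophil transcripts, 3 of 18 lay below 0 and 2 above.

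Growth factor and cytokine receptors (24 tested) had 7 members below 0 and none above at an unadjusted p under 0.05, with a median of -0.54 and none called. Of the β chains of the GM-CSF receptor family, Csf2rb gave -0.77 (SE 0.30, adjusted p = 0.569) and Csf2rb2 -0.99 (SE 0.27, 0.365). Their gaps were near 0 in wild type (-0.15 and 0.08), and -0.92 and -0.90 in RAG2-/- cells. Without RAG2-/- CD8α+ replicate 2, Csf2rb gave -0.49. Il1r2, a decoy receptor for interleukin-1, had gaps of -1.78 and -3.13 (-1.35, SE 0.25, 0.148, but -0.31 as deposited), and Il15ra, which presents interleukin-15, had 3.03 and 0.93 (-2.09, SE 0.65, 0.422; -1.09 with the mean of its probe sets). Csf3r, the G-CSF receptor of neutrophils, was above 5 only in RAG2-/- CD8α- cells, at 6.03 and 8.15, the higher on the array with the most neutrophil transcript (-2.09, 0.594; -1.03 without that array).

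Toll-like receptors and adaptors (18 tested) had 4 below 0 and none above (median -0.42). Tlr4, the sensor of bacterial lipopolysaccharide, was at 7.03 and 6.80 in CD8α+ and 6.06 and 6.05 in CD8α- cells of wild type, and at 6.26 and 5.83 and at 6.80 and 7.19 in those of RAG2-/- mice. Its order was turned, with gaps of 0.86 and -0.95 (-1.81, SE 0.30, adjusted p = 0.113). Cd14, its co-receptor and also a monocyte and macrophage gene, was below 5 on all wild type arrays and at 8.38 to 10.39 on RAG2-/- arrays (-1.33, SE 0.48, 0.533). The highest value was on RAG2-/- CD8α- replicate 2: without it the interaction of Cd14 was -0.76, and without both arrays that carried neutrophil transcripts -0.65. Tlr1 had gaps of -3.24 and -4.80 (-1.56, SE 0.33, 0.211). Tlr3, the double-stranded RNA sensor of CD8α+ cells, had 4.36 and 3.46 (-0.90, SE 0.52, 0.729; -0.33 without RAG2-/- CD8α- replicate 2).

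Costimulation and maturation genes (17 tested) had 3 above 0 and 1 below (median 0.09). Cd200, which signals to the inhibitory receptor CD200R, was at 9.45 and 9.71 in CD8α+ and 8.34 and 9.17 in CD8α- cells of wild type, and at 8.19 and 8.58 and at 5.39 and 5.71 in those of RAG2-/- mice. The gap was 0.82 in wild type and 2.84 in RAG2-/- cells (2.01, SE 0.43, adjusted p = 0.225). Tnfrsf4 (OX40) had gaps of 1.17 and 3.27 (2.10, SE 0.48, 0.25; 1.40 with the floor at 6). In both, RAG2-/- CD8α- cells were the lowest group on each array.

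Type I interferon-stimulated genes were divided, with 2 of 17 on each side and a median of -0.27, which was 0.12 as deposited. The antiviral Oas2 had gaps of -3.70 and -5.37 (-1.67, SE 0.40, adjusted p = 0.296), and Cmpk2 had -2.37 and -1.03 (1.34, SE 0.38, 0.389; 0.89 with the floor at 6). Of the interferon-γ-inducible genes, Iigp1, a GTPase that attacks parasite vacuoles, came nearest to the threshold (-1.61, SE 0.22, adjusted p = 0.0553), with 8.06 and 8.15 in wild type CD8α+ cells and 5.91 and 6.01 in RAG2-/- CD8α+ cells. RAG2-/- CD8α- cells were below 5, so that gap is a bound and the bounds leave the direction unsettled. A second Iigp1 probe set gave -0.215, with CD8α+ cells at 5.76 and 6.37 in wild type and 6.12 and 5.57 in RAG2-/- mice.

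MHC class II presentation genes (20 tested) had 1 member below 0 and none above at an unadjusted p under 0.05, the lysosomal protease gene Lgmn (-1.34, SE 0.39, adjusted p = 0.403), and MHC class I and cross-presentation genes (20 tested) had 2 below, Pdia3 (-1.08, 0.595; -0.57 without RAG2-/- CD8α- replicate 2) and Cybb (-0.94, 0.596; -0.61 without wild type CD8α+ replicate 1). Cytosolic ribosomal protein genes (17 tested) had none in either direction and a median of -0.05. Cholesterol synthesis genes lay mostly above 0, 15 of 16, against 4193 of 8763 genes, with a median of 0.57 and 2 members at an unadjusted p under 0.05, Fdft1 (1.10, SE 0.37, adjusted p = 0.484) and Pmvk (0.59, SE 0.22, 0.546). Without both arrays with neutrophil transcripts the median was 1.12, with 7 members above 0 at that p.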

How the data were processed

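Splenic dendritic cells of 4 groups (wild type or RAG2-/-, CD8α+ or CD8α-) were measured on 8 arrays, 2 a group. The values are log2 expression per probe set as deposited by the authors. Per the submitters' processing notes, GCRMA and affy were used for the wild type arrays and GCRMA for the RAG2-/- arrays; tool versions, and whether the genotypes were normalized jointly, are not given in the sources used. Of 45101 probe sets, 34945 carried 1 gene name in the platform annotation, 932 several and 9160 none, and 64 were controls.

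Probe sets with 1 gene name at log2 5 or more on at least 2 arrays were kept, values below 5 were set to 5, and each gene was taken from its probe set with the highest mean. The 4 groups were modelled in R 4.3.3 with limma 3.58.1 (lmFit, plain eBayes, 4 residual degrees of freedom, 2-sided) and adjusted by Benjamini-Hochberg over 8763 genes. The threshold was an adjusted p under 0.05. A simulation served as a check of the model. Its outcome is not given here, so it lends no weight to the calls, including those that rest on groups at the floor. Python 3.11.15 with matplotlib 3.10.9 served for the figures. The number of arrays limits the precision.

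The rule for naming genes took called genes with subset differences separated between genotypes and whose bounds settled the direction, up to 15 each way and 8 a class, plus list members and Cd8a, Cd4, Rag1 and Rag2. The comparison, the lists and the genes were chosen with earlier results of these data known. Same-numbered replicates deviated together at r = -0.175 to 0.116, and the main fit used no pairing. These correlations cannot settle whether the numbers pair the arrays, which the labels do not say. With the replicate number as a block, 6 genes were called. Other floors, scalings, filters, probe set rules and fits, and fits without single arrays, were also run. All columns of the deposited table were matched to samples by title.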

Additional observations from a re-analysis of the deposited data

Results flagged for a closer look

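The genes below are listed because a test of the difference itself, the interaction of genotype and subset in limma (adjusted p under 0.05), set the subset gap of RAG2-/- cells apart from that of wild type cells. Each value is the interaction on the log2 scale with values below 5 set to 5, and no explanation was weighed.

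Below 0, meaning a gap shifted toward CD8α- cells in RAG2-/- mice, were Abca9 (-3.41), Fcgr3 (-3.20), Fcgr2b (-3.00), Dscaml1 (-2.86), Xdh (-2.39), Cd300ld (-2.30), Cd209b (-2.22), Cd300lb (-2.12), Hacd4 (-2.10) and Dtx1 (-2.05). All of these but Dscaml1 and Dtx1 were higher in the CD8α- cells of RAG2-/- mice than in those of wild type on each array. Dscaml1 and Dtx1 differed between genotypes mainly in CD8α+ cells, where they were lower in RAG2-/- mice.

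Above 0 were Ryr3 (3.76), Cpe (3.59), Tmem158 (3.14), 2610528A11Rik (3.02), Dkk2 (2.98), Pianp (2.93), Cdh17 (2.53), Dnajc22 (2.31), Scn3a (1.99), Eid2 (1.93), Col17a1 (1.91), Nid1 (1.87), Myo9a (1.87), Mical3 (1.79), Ston2 (1.77), Zfp521 (1.70), Lysmd2 (1.67), Tmod2 (1.66) and Cadm3 (1.55). Pianp and Myo9a were higher in the CD8α+ cells of RAG2-/- mice, and the other 17 were lower in the CD8α- cells of RAG2-/- mice than in those of wild type on each array.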

How the results depend on the processing

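Across 115 genes, called or at an unadjusted p under 0.05 in a list or named, the sign turned in 16 of 2458 values, of 8 genes (among them Cd8a, Clec4a2, Esam, Notch2 and Sirpa) and of 0 called genes; 350 values lost a call, and no gene was called with its gaps reversed. The calls themselves depended on the settings, and beyond fewer genes or arrays the cause was not tested. In the order all, above 0, below 0, open only in RAG2-/- cells, only in wild type, widened, narrowed, the calls with the floor at 5 were 29, 19, 10, 7, 15, 3 and 4. With values as deposited, 7 lay above 0 and 6 were open only in wild type. With the floor at 6 there were 71, 39 above 0, 32 below, 17 open only in RAG2-/- cells and 30 only in wild type. An offset of 16 gave 15, 8 above 0, 4 open only in RAG2-/- cells, 7 only in wild type and 1 narrowed. Median centring gave 15, 7 above 0, 5 open only in wild type and 1 narrowed. No filter gave 6 below 0, 4 open only in RAG2-/- cells, 0 widened and 2 narrowed, and a filter at 7 gave 12 above 0 and 9 open only in wild type. Each probe set on its own gave 1 narrowed, limma-trend 2, and the mean of probe sets 2 narrowed and 5 widened. The replicate block gave 6, 5 above 0, 1 below, 1 open only in RAG2-/- cells, 4 only in wild type, 0 widened and 1 narrowed. With the numbers exchanged in the RAG2-/- CD8α- group (added after seeing the data, since those groups correlated at -0.175), it gave 7, 5, 2, 1, 5, 0 and 1. Also added then, genes at 5 or more on all arrays gave 0 of each with 473 at an unadjusted p under 0.05, and leaving out both arrays with neutrophil transcripts gave 0 of each with 1185. Leaving out single arrays gave 0 to 18 calls, 0 to 7 above 0, 0 to 11 below, 0 to 10 open only in RAG2-/- cells, 0 to 6 only in wild type, 0 to 1 widened and 0 to 1 narrowed, with 15 of the 29 lost each time and 0 kept each time; the lone array of a group was assumed to vary like the other groups. Signal near background limits all gaps that rest on a group below 5, and 1254 genes had at least 1 such array.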
